A study of Mus musculus with 8 samples.

Results

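The genes of the hypoxia-inducible factor (HIF) pathway were followed in brain endothelial cells of Flvcr2 knockout and Flvcr2 heterozygous mouse embryos. The set holds 31 genes, chosen by name: 10 genes for HIF subunits and oxygen-sensing regulators, and 21 genes known to be induced by low oxygen, with the glycolytic enzymes left out. All 31 were among the 24421 rows of the count table, and all 31 passed the filter on low counts that left 13540 genes for testing. RNA was measured in 8 libraries at E14.5 (embryonic day), 4 from Flvcr2 knockout and 4 from Flvcr2 heterozygous embryos of the C57Bl6 strain. The mutated Flvcr2 gene gives GFP expression, per the series description, and cells carrying GFP together with the endothelial surface protein CD31 were sorted; the heterozygous cells thus carry a mutant allele too, and no wild-type library was compared. Each library came from 2000 to 5000 cells. Separate embryos are not stated for the libraries of a genotype, and p-values therefore reflect library-to-library spread, which may be partly technical.

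HIF is a pair of proteins, an oxygen-regulated alpha subunit and a constant partner. In well-oxygenated cells prolyl hydroxylases mark the alpha subunit, the von Hippel-Lindau protein binds the mark, and the subunit is degraded; in low oxygen the subunit accumulates and turns on genes for glucose use, mitochondrial turnover, secretion and vessel growth. The alpha subunits are controlled mainly at the protein level, which RNA counts do not measure. In the developing brain the pathway is best known for driving vessel ingrowth, and the gene for HIF-2 alpha is named endothelial PAS domain protein for its abundance in endothelium.

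Total counts ran from 12.1 to 35.9 M in knockout and from 9.11 to 22.6 M in heterozygous libraries. Levels are given as CPM, counts per M counts of a library, after scaling for library composition. A list of 12 endothelial markers had a mean of 8.84 ± 0.14 log2 CPM in knockout and 8.69 ± 0.34 in heterozygous libraries (SD, n = 4 each). The difference did not pass (exact permutation test, p = 0.571), and none of the 12 was at 0. The list mean does not show single markers: Emcn rose and Sox18 fell in the edgeR test, and 10 were not called. Flvcr2 itself, counted under its older symbol Mfsd7c, averaged 301 ± 73.6 CPM in knockout and 427 ± 124 CPM in heterozygous libraries and was not called (edgeR adjusted p = 0.209). The deleted part of the gene was not given in the sources used here. This value therefore cannot check the genotypes. Lists of markers of 6 other cell types had lower means in knockout libraries, by differences from -2.75 to -1.04 log2 CPM, none of which passed after adjustment over 7 lists: the mean of 12 neuron genes lay between 1.29 and 3.64 log2 CPM in knockout and between 3.65 and 6.35 in heterozygous libraries (exact permutation test, p = 0.0286, the smallest possible here; adjusted p = 0.0667). In these bulk libraries, fewer cells of a type and less RNA per cell cannot be told apart. Knockout 1 and heterozygous 2 had 1 and 0 counts of Xist, with 914 and 331 counts of the Y-linked gene Ddx3y. Both transcripts were counted in knockout 4 (1135 of Xist and 6 of Ddx3y), heterozygous 3 (442 and 28) and heterozygous 4 (861 and 56); whether these libraries pool embryos was not tested.

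Of the 31 genes, 4 rose in knockout cells, 1 fell and 26 did not pass the test (edgeR quasi-likelihood test, adjusted p under 0.05 over all 13540 genes). The prolyl hydroxylase gene Egln3 rose 5.90-fold, the transcriptional repressor gene Bhlhe40 3.63-fold, Ero1l, an oxidase of the endoplasmic reticulum, 2.70-fold, and the pyruvate dehydrogenase kinase gene Pdk1 2.01-fold. Hif3a, the least abundant HIF alpha subunit here per exon length, fell 2.41-fold. Among all tested genes 5.53% were called higher and 4.02% lower, 9.55% together, against 16.1% of the 31. The set was chosen with earlier results of these data known, so this share describes it and does not test the pathway. The median log2 fold change of the 31 genes was 0.09, beside -0.03 over all tested genes, and the median size of change was 0.38, beside 0.39. The 4 knockout libraries lay outside the range of the 4 heterozygous libraries for 7 of the 31 genes, against 17.6% of all tested genes; knockout lay above for 5 (Egln3, Pdk1, Car9, Bhlhe40 and Ero1l; 9.7% of all genes) and below for 2 (Hif3a and Ddit4; 7.9%).

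**Figure D1:**
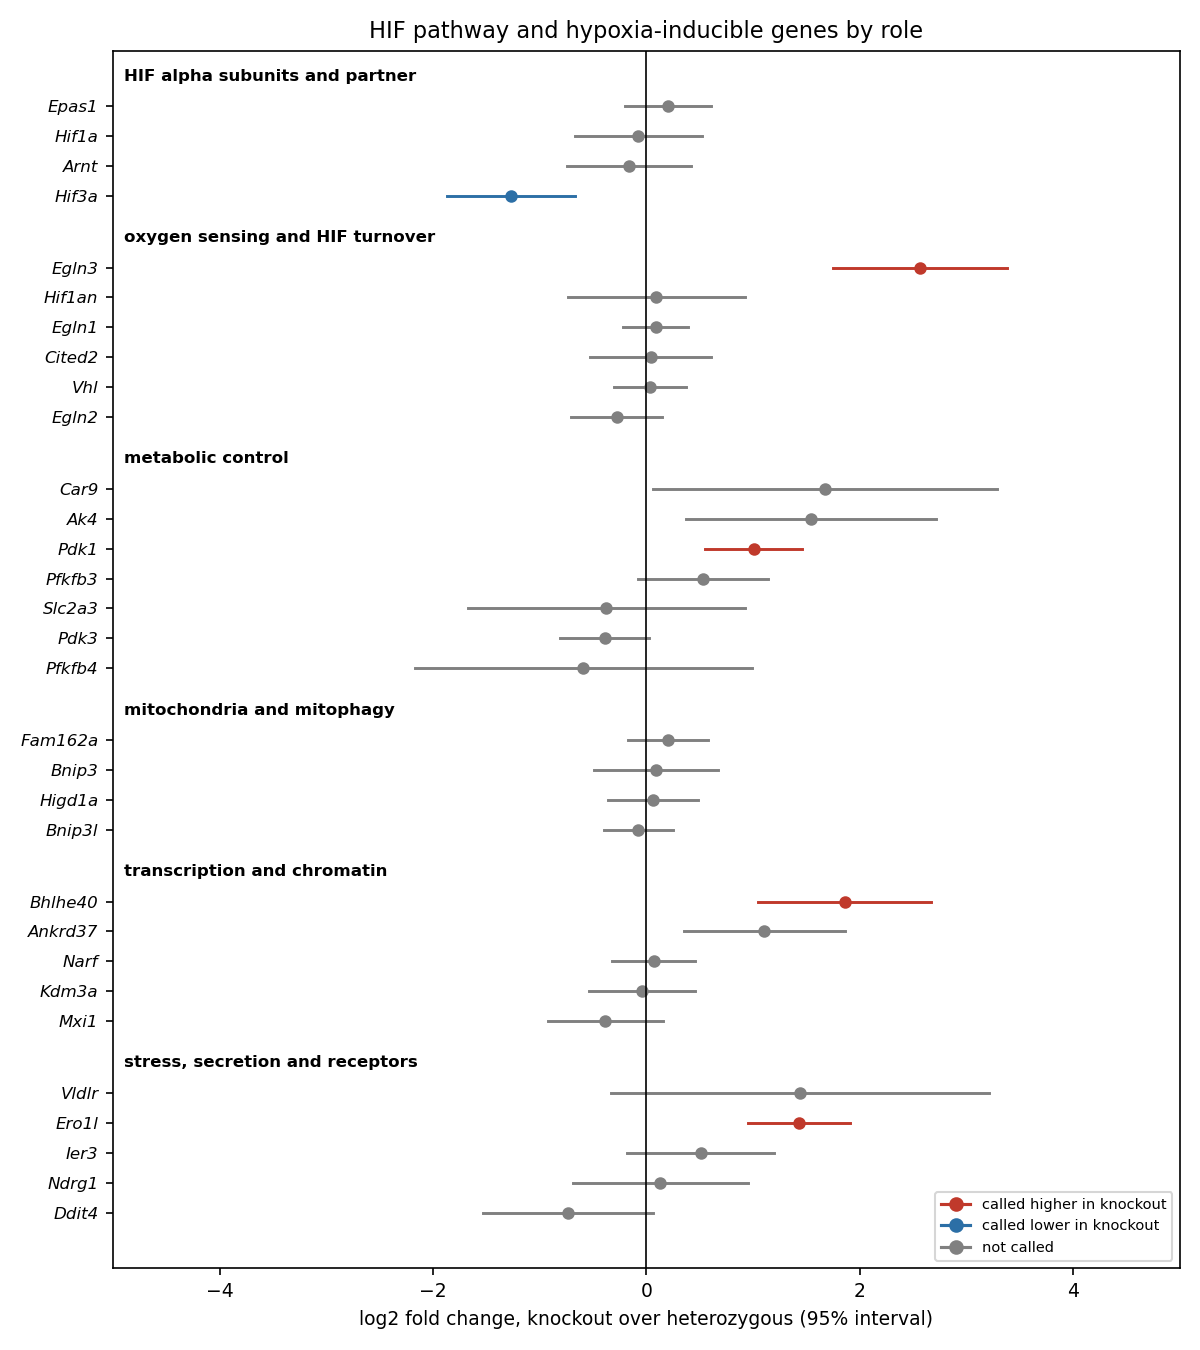
The log2 fold change of each of the 31 genes, knockout over heterozygous, is plotted with its 95% interval, grouped by role; red marks genes called higher, blue genes called lower and grey genes not called. Egln3 (2.56), Bhlhe40 (1.86), Ero1l (1.43) and Pdk1 (1.005) lie to the right and Hif3a (-1.27) to the left, while the 4 genes under mitochondria and mitophagy lie between -0.07 and 0.20.

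Of the 26 genes not called, log2 fold changes ran from -0.73 to 1.68. For 17 of them the 95% interval stayed between -1 and 1, that is, within a 2-fold change either way. The other 9, whose intervals reached further, were Pfkfb3, Pfkfb4, Ak4, Slc2a3, Car9, Ankrd37, Ddit4, Ier3 and Vldlr, so changes of over 2-fold in these genes were not resolved at this depth and spread.

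Among the HIF subunits, transcripts of the main alpha subunits did not pass the test and Hif3a fell. Hif1a (chr12:73901375-73947530, GRCm38), the gene of HIF-1 alpha, had 95.4, 38.8, 82.6 and 107 CPM in knockout libraries 1 to 4 and 77.2, 82.5, 105 and 77.4 CPM in heterozygous libraries 1 to 4. Knockout 2 was the lowest of the 8 and knockout 4 the highest, while knockout 1 and knockout 3 lay within the heterozygous range. Its log2 fold change was -0.07 with a 95% interval from -0.67 to 0.52 (edgeR adjusted p = 0.893). Epas1, the gene of HIF-2 alpha, had 179, 130, 138 and 140 CPM in knockout libraries 1 to 4 and 94.1, 162, 134 and 120 CPM in heterozygous libraries 1 to 4, and the groups overlapped (log2 fold change 0.20, interval -0.20 to 0.61; edgeR adjusted p = 0.529). Arnt, which encodes the constant partner, had 43.0, 19.5, 35.6 and 38.7 CPM in knockout and 25.6, 46.0, 41.0 and 40.5 CPM in heterozygous libraries, also overlapping (log2 fold change -0.16 ± 0.26, SE). Knockout 2 was again the lowest.

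Hif3a (chr7:17031507-17062427, GRCm38) encodes another alpha subunit, whose mouse splice form IPAS is known as an inhibitor of the other alpha subunits. It had 6.49, 11.3, 11.0 and 8.598 CPM in knockout libraries 1 to 4 and 17.0, 22.8, 29.0 and 21.3 CPM in heterozygous libraries 1 to 4. Every knockout library was below every heterozygous one, and the difference was -1.27 ± 0.27 on the log2 scale (SE; edgeR adjusted p = 0.0175). Counts per gene do not separate its splice forms. The call was lost without knockout 1, without knockout 4 or without heterozygous 3 (edgeR adjusted p = 0.0581, 0.0572 and 0.0578), while the log2 fold change stayed between -1.39 and -1.11 over the 8 leave-one-out fits. Without both knockout 1 and heterozygous 2 it was -1.11 ± 0.32 (edgeR adjusted p = 0.110).

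Per kilobase of exon, Epas1 was the most abundant alpha subunit in both genotypes, at 26.6 ± 4.01 CPM per kb in knockout and 23.1 ± 5.13 in heterozygous libraries (SD, n = 4 each). Hif1a followed at 14.9 ± 5.50 and 15.7 ± 2.38, Arnt at 7.08 ± 2.12 and 7.93 ± 1.82, and Hif3a at 1.44 ± 0.35 and 3.47 ± 0.77 CPM per kb in knockout and heterozygous libraries. The ranges of Epas1 and Hif1a did not overlap in knockout libraries (23.7 to 32.5 against 7.11 to 19.7 CPM per kb) and did in heterozygous ones (17.1 to 29.4 against 14.2 to 19.2). These are orders of level and carry no test; exon length was the union over annotated transcripts, so the isoforms present could shift them.

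**Figure D2:**
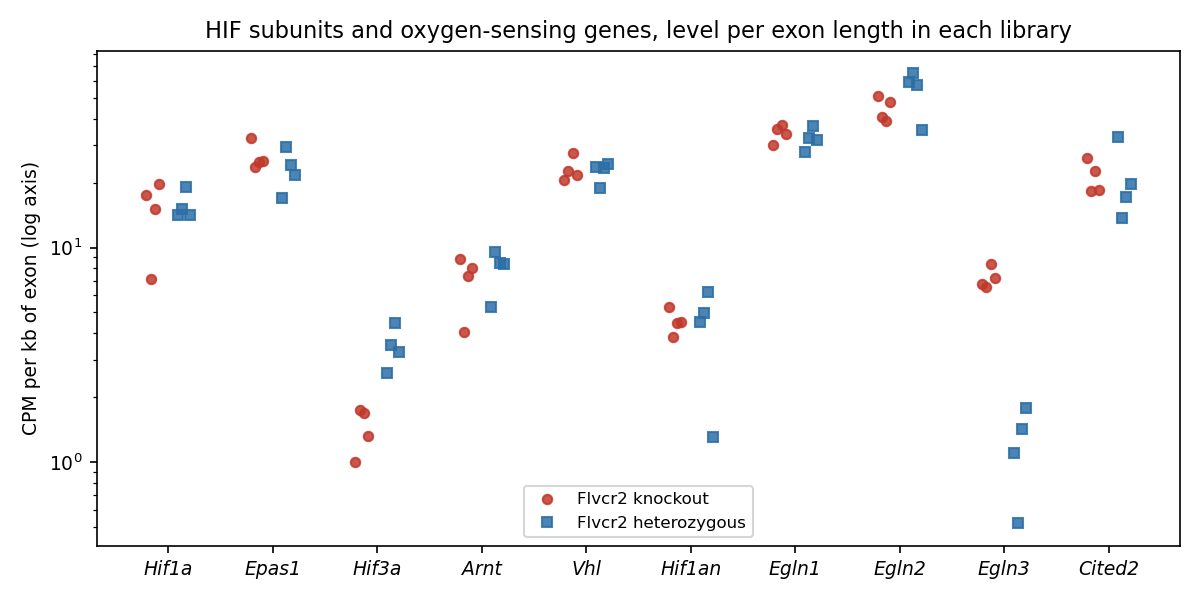
Each point is 1 library, with knockout (red circles) left of heterozygous (blue squares); the log axis gives CPM per kb of exon for the HIF subunits and oxygen-sensing genes. Egln3 lies between 6.58 and 8.43 in knockout and between 0.52 and 1.79 in heterozygous libraries, Hif3a is lower in all 4 knockout libraries, and the other 8 genes overlap between genotypes.

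Of the 6 oxygen-sensing and turnover genes only Egln3 was called. Egln3 (chr12:54178981-54203860, GRCm38) encodes PHD3, a prolyl hydroxylase that is itself induced by HIF. It had 17.99, 17.5, 22.4 and 19.2 CPM in knockout libraries 1 to 4, from 201 to 666 counts, and 2.94, 1.38, 3.80 and 4.77 CPM in heterozygous libraries 1 to 4, from 13 to 89 counts. Even the lowest knockout library was above the highest heterozygous library, and the 4 knockout libraries were close to each other. The log2 fold change was 2.56 ± 0.37 (SE; edgeR adjusted p = 0.00333), and it stayed between 2.32 and 2.81 and was called in each of the 8 leave-one-out fits.

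The other hydroxylase genes did not pass the test. Egln1, the gene of PHD2, the main oxygen sensor, averaged 123 ± 11.6 CPM in knockout and 116 ± 12.9 CPM in heterozygous libraries (SD, n = 4 each), and its 95% interval allowed a change between -14.0% and 31.4%. Egln2, the gene of PHD1, averaged 98.5 ± 12.6 and 120 ± 28.7 CPM in knockout and heterozygous libraries (log2 fold change -0.28 ± 0.19, SE). Per kilobase of exon Egln3 remained the least abundant of the 3 in both genotypes: in knockout libraries it reached 7.25 ± 0.83 CPM per kb, against 34.3 ± 3.23 for Egln1 and 44.7 ± 5.69 for Egln2. Vhl, the substrate receptor of the ligase that removes hydroxylated alpha subunits, was at 64.9 ± 8.74 CPM in knockout and 63.4 ± 6.94 CPM in heterozygous libraries. Hif1an, the asparagine hydroxylase that blocks HIF transactivation, was at 28.0 ± 3.76 and 26.3 ± 13.0 CPM, with heterozygous 4 at 8.10 CPM. Cited2, which competes with HIF for its coactivators, was at 52.7 ± 9.17 and 51.3 ± 20.5 CPM. The log2 fold changes of these 3 genes were 0.03, 0.09 and 0.04.

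HIF binds a core of 5 letters, ACGTG or GCGTG. Promoter windows from RefSeq (GRCm38.p6; 250 bases before to 50 bases after a transcription start) were found for 26 of the 31 genes, 37 windows in all, and none for Epas1, Slc2a3, Bnip3l, Bhlhe40 and Ndrg1. Both letter strings were searched on both strands, and a palindromic CACGTG counted once on each strand. The core was present in 78.4% of the 37 windows, against 60.9% of 13843 windows of tested genes and 43.8% of all 32851 windows. For the ACGTG form the shares were 51.4%, 25.1% and 19.6%. Windows of 1 gene can overlap. Counted per gene, either form of the core was present for 88.5% of 26 genes, against 67.0% of 10815 tested genes with a window. The set was chosen by name for this pathway, with earlier results of these data known. Its shares therefore describe the set and do not test the pathway. A match is a description of letters, not a bound site. The windows of the called genes are shown because those genes moved in these cells, and Bnip3 because it holds more matches and was not called. Capitals mark the core on either strand, and each sequence reads 5′ to 3′ on the strand of the gene. The windows are chr12:54203825-54204124 (- strand) for Egln3, chr14:45318523-45318822 (- strand) for Ero1l, chr2:71872974-71873273 (+ strand) for the upstream start of Pdk1, chr7:17062378-17062677 (- strand) for Hif3a and chr7:138909457-138909756 (- strand) for Bnip3.
Egln3: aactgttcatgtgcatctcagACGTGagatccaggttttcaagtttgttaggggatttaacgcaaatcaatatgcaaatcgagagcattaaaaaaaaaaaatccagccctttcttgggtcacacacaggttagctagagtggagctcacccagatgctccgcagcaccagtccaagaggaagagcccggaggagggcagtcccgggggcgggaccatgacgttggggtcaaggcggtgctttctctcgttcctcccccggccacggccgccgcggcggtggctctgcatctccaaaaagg
Ero1l: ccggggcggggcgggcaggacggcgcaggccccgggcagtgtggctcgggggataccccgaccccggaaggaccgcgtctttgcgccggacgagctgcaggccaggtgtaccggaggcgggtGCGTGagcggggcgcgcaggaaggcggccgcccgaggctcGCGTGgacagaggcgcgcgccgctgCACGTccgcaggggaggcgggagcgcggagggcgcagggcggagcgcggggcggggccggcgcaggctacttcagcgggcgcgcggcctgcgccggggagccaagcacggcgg
Pdk1: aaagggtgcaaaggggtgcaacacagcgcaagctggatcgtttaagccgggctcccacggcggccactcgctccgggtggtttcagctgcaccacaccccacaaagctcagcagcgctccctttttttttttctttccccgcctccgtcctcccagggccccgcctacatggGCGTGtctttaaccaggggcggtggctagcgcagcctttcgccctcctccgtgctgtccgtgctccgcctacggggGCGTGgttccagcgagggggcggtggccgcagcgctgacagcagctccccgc
Hif3a: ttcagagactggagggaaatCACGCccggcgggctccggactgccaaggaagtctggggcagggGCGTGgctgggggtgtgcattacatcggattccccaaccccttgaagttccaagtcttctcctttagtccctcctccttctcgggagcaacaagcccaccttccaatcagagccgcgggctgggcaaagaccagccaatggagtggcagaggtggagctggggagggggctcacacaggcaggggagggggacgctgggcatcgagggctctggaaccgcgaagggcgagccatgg
Bnip3: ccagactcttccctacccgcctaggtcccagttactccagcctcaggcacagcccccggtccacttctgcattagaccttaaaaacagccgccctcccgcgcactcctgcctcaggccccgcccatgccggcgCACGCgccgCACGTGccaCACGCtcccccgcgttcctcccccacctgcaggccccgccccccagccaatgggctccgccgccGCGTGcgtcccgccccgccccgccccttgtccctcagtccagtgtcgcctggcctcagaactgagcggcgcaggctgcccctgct
Egln3 held 1 match, Ero1l 3, Pdk1 2, Hif3a 2 and Bnip3 5. Fam162a, also not called, held 6. The windows of Vhl, Hif1an and Vldlr held none.

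**Figure D3:**
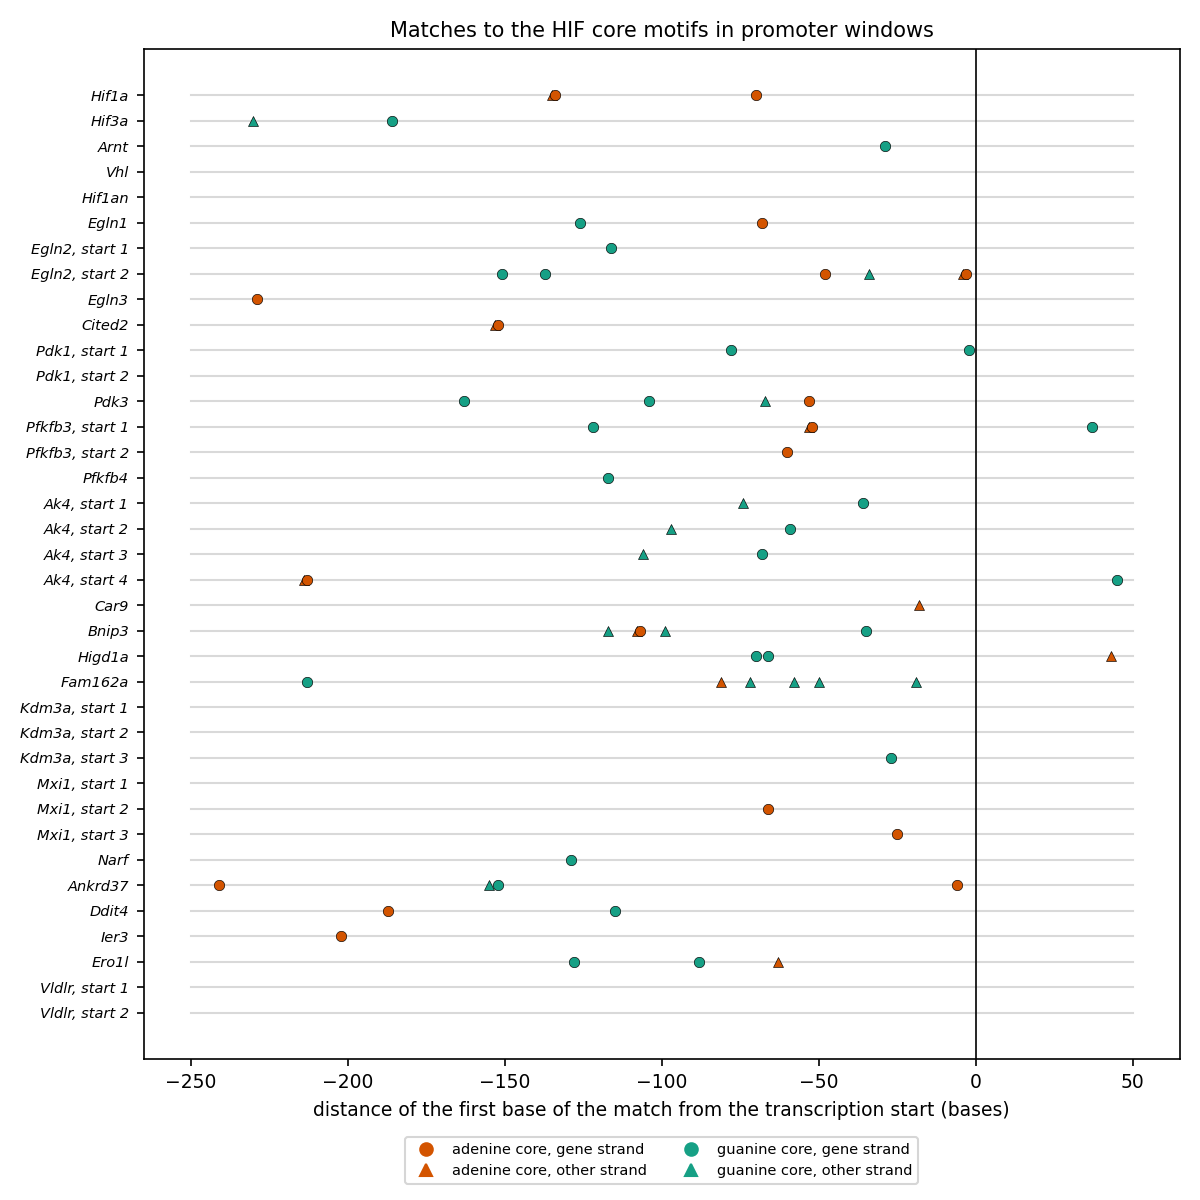
Each row is a promoter window of 1 gene, drawn from 250 bases before to 50 bases after the transcription start at 0 (in bases); orange marks the ACGTG core (adenine core) and green the GCGTG core (guanine core), with circles for the strand of the gene and triangles for the other strand. The 23 genes with a match include Hif3a, which fell, and the matches in the first start of Pdk1 lie at -78 and -2, while its second start holds 0.

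Among the 7 genes of metabolic control, Pdk1 rose and the others did not pass the test. Pdk1 (chr2:71873224-71903858, GRCm38) encodes a kinase of the mitochondrial matrix that inhibits pyruvate dehydrogenase and so the conversion of pyruvate to acetyl-CoA. It had 63.3, 42.1, 66.3 and 65.0 CPM in knockout libraries 1 to 4 and 21.7, 29.5, 33.0 and 33.6 CPM in heterozygous libraries 1 to 4. The groups did not overlap, knockout 2 being closest to the heterozygous libraries (log2 fold change 1.005 ± 0.21, SE; edgeR adjusted p = 0.0144). The call held in each of the 8 leave-one-out fits. It was lost when knockout 1 and heterozygous 2, the libraries with almost no Xist, were both left out (log2 fold change 0.98 ± 0.26; edgeR adjusted p = 0.0910). Its relative Pdk3 was at 40.7 ± 7.13 CPM in knockout and 53.3 ± 9.40 CPM in heterozygous libraries (log2 fold change -0.39 ± 0.19; edgeR adjusted p = 0.225). Of the family members outside the set, Pdk2 was at 59.6 ± 14.2 and 55.1 ± 12.1 CPM and Pdk4 at 3.19 ± 1.83 and 7.25 ± 5.21 CPM in knockout and heterozygous libraries, neither called; they are named after their values were seen.

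Ak4, a mitochondrial adenylate kinase gene, had 18.1, 7.14, 30.9 and 17.1 CPM in knockout libraries 1 to 4 and 7.50, 2.55, 11.4 and 3.50 CPM in heterozygous libraries 1 to 4. Knockout 2 lay within the heterozygous range. The log2 fold change of 1.54 ± 0.53 (SE) missed the threshold (edgeR adjusted p = 0.0975). It passed in DESeq2 (adjusted p = 0.0309) and in limma voom with library weights (adjusted p = 0.0493). It also passed in edgeR blocked by replicate number (adjusted p = 0.0266), though the labels pair no libraries by number. Car9, a cell-surface carbonic anhydrase gene often used as a hypoxia marker, had 4.45, 4.27, 9.51 and 3.26 CPM in knockout libraries 1 to 4 and 0.19, 1.17, 2.69 and 2.55 CPM in heterozygous libraries 1 to 4. All knockout libraries were above all heterozygous ones, yet heterozygous 1 held 2 counts, and the difference missed the threshold (log2 fold change 1.68 ± 0.73; edgeR adjusted p = 0.180).

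Pfkfb3, which drives glycolysis in endothelium, was at 40.8 ± 7.42 CPM in knockout and 28.2 ± 11.3 CPM in heterozygous libraries (log2 fold change 0.53 ± 0.28, SE; edgeR adjusted p = 0.259). Its relative Pfkfb4 was at 2.98 ± 2.78 and 4.51 ± 2.71 CPM. Slc2a3, the glucose transporter gene best known from neurons, was at 5.04 ± 1.70 and 6.55 ± 4.05 CPM in knockout and heterozygous libraries. Both Pfkfb4 and Slc2a3 were highest in heterozygous 1, at 8.26 and 10.8 CPM, the library that also had the highest neuron mean (6.35 log2 CPM); the part of neuronal transcripts in these values was not tested.

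None of Bnip3, Bnip3l, Higd1a and Fam162a, grouped for mitochondrial turnover and membranes, passed the test; Pdk1, Pdk3 and Ak4, given above, also encode mitochondrial proteins. Bnip3 and Bnip3l encode receptors that mark mitochondria for autophagy. Bnip3l was at 372 ± 45.7 CPM in knockout and 391.7 ± 51.6 CPM in heterozygous libraries, and its 95% interval allowed a change between -24.1% and 18.9%. Bnip3 had 34.8, 23.9, 47.1 and 25.7 CPM in knockout libraries 1 to 4 and 24.4, 24.0, 40.0 and 35.1 CPM in heterozygous libraries 1 to 4. Higd1a, which helps assemble respiratory complexes, was at 127 ± 30.1 and 121 ± 18.9 CPM, and Fam162a at 75.6 ± 13.4 and 65.6 ± 8.93 CPM in knockout and heterozygous libraries. The log2 fold changes of the 4 genes were -0.07, 0.09, 0.07 and 0.20 in the order named. Exons of opposite-strand genes cover 27.2% of the exon length of Bnip3, 22.5% of Higd1a and 21.8% of Fam162a, and the strand setting of counting was not given in the sources used here.

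Among the 5 genes linked to transcription and chromatin, Bhlhe40 rose. Bhlhe40 (chr6:108660629-108666925, GRCm38) encodes a basic helix-loop-helix repressor that responds to low oxygen, to the circadian clock and to other stimuli. It had 140, 80.7, 80.2 and 123 CPM in knockout libraries 1 to 4 and 13.1, 23.3, 51.6 and 28.1 CPM in heterozygous libraries 1 to 4. The groups did not overlap, and both groups were widely spread (log2 fold change 1.86 ± 0.37, SE; edgeR adjusted p = 0.0123). The call held in each of the 8 leave-one-out fits and was lost without both knockout 1 and heterozygous 2 (log2 fold change 1.61 ± 0.44; edgeR adjusted p = 0.0946). Its nearest relative Bhlhe41 was at 0.58 ± 0.63 CPM in knockout and 0.78 ± 0.86 CPM in heterozygous libraries, named after its values were seen.

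Ankrd37, an ankyrin repeat gene known as a sensitive HIF target, had 50.4, 68.3, 100.8 and 35.5 CPM in knockout libraries 1 to 4 and 19.8, 21.5, 33.1 and 43.4 CPM in heterozygous libraries 1 to 4. Knockout 4 lay below heterozygous 4, and the log2 fold change of 1.11 ± 0.34 (SE) missed the threshold (edgeR adjusted p = 0.0677). Without knockout 4 or without heterozygous 4 it passed (edgeR adjusted p = 0.0494 and 0.0499), as it did in DESeq2 with all libraries (adjusted p = 0.0141). Opposite-strand exons of Lrp2bp cover 20.1% of its exon length. The histone demethylase gene Kdm3a, the Myc antagonist gene Mxi1 and Narf were not called, with log2 fold changes of -0.04, -0.38 and 0.07. Kdm3a averaged 28.4 ± 4.92 CPM in knockout and 29.3 ± 6.94 CPM in heterozygous libraries.

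Among the 5 genes for stress, secretion and receptors, Ero1l rose. Ero1l (chr14:45283087-45318771, GRCm38; now named Ero1a) encodes the oxidase that drives disulfide bond formation in the endoplasmic reticulum. It had 83.6, 47.3, 69.4 and 88.9 CPM in knockout libraries 1 to 4 and 22.5, 26.0, 32.2 and 26.4 CPM in heterozygous libraries 1 to 4. All knockout libraries were above all heterozygous ones, with knockout 2 the lowest of the 4 (log2 fold change 1.43 ± 0.22, SE; edgeR adjusted p = 0.00399), and the call held in each of the 8 leave-one-out fits. Its relative Ero1lb, named after its values were seen, was at 7.09 ± 3.57 CPM in knockout and 7.604 ± 1.90 CPM in heterozygous libraries.

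Ddit4, an inhibitor gene of mTOR signalling that low oxygen and other stresses induce, had 6.24, 3.31, 5.41 and 4.36 CPM in knockout libraries 1 to 4 and 10.5, 6.69, 7.598 and 7.38 CPM in heterozygous libraries 1 to 4. Every knockout library was below every heterozygous one, but the difference of -0.73 ± 0.36 on the log2 scale missed the threshold (edgeR adjusted p = 0.228). Ier3, an immediate early gene, averaged 60.2 ± 8.201 CPM in knockout and 42.2 ± 23.1 CPM in heterozygous libraries, where heterozygous 4 reached 75.7 CPM; without that library the log2 fold change was 0.96 ± 0.21 (edgeR adjusted p = 0.0281), against 0.51 ± 0.31 with it (edgeR adjusted p = 0.341). Vldlr, a lipoprotein and reelin receptor gene, had 18.9, 1.13, 4.67 and 26.7 CPM in knockout libraries 1 to 4 and 9.97, 2.87, 3.41 and 2.83 CPM in heterozygous libraries 1 to 4. Its knockout libraries differed from each other more than the group means did, with knockout 2 at 13 counts (edgeR adjusted p = 0.292). Ndrg1 averaged 13.8 ± 6.47 and 12.7 ± 4.40 CPM in knockout and heterozygous libraries and was not called.

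**Figure D4:**
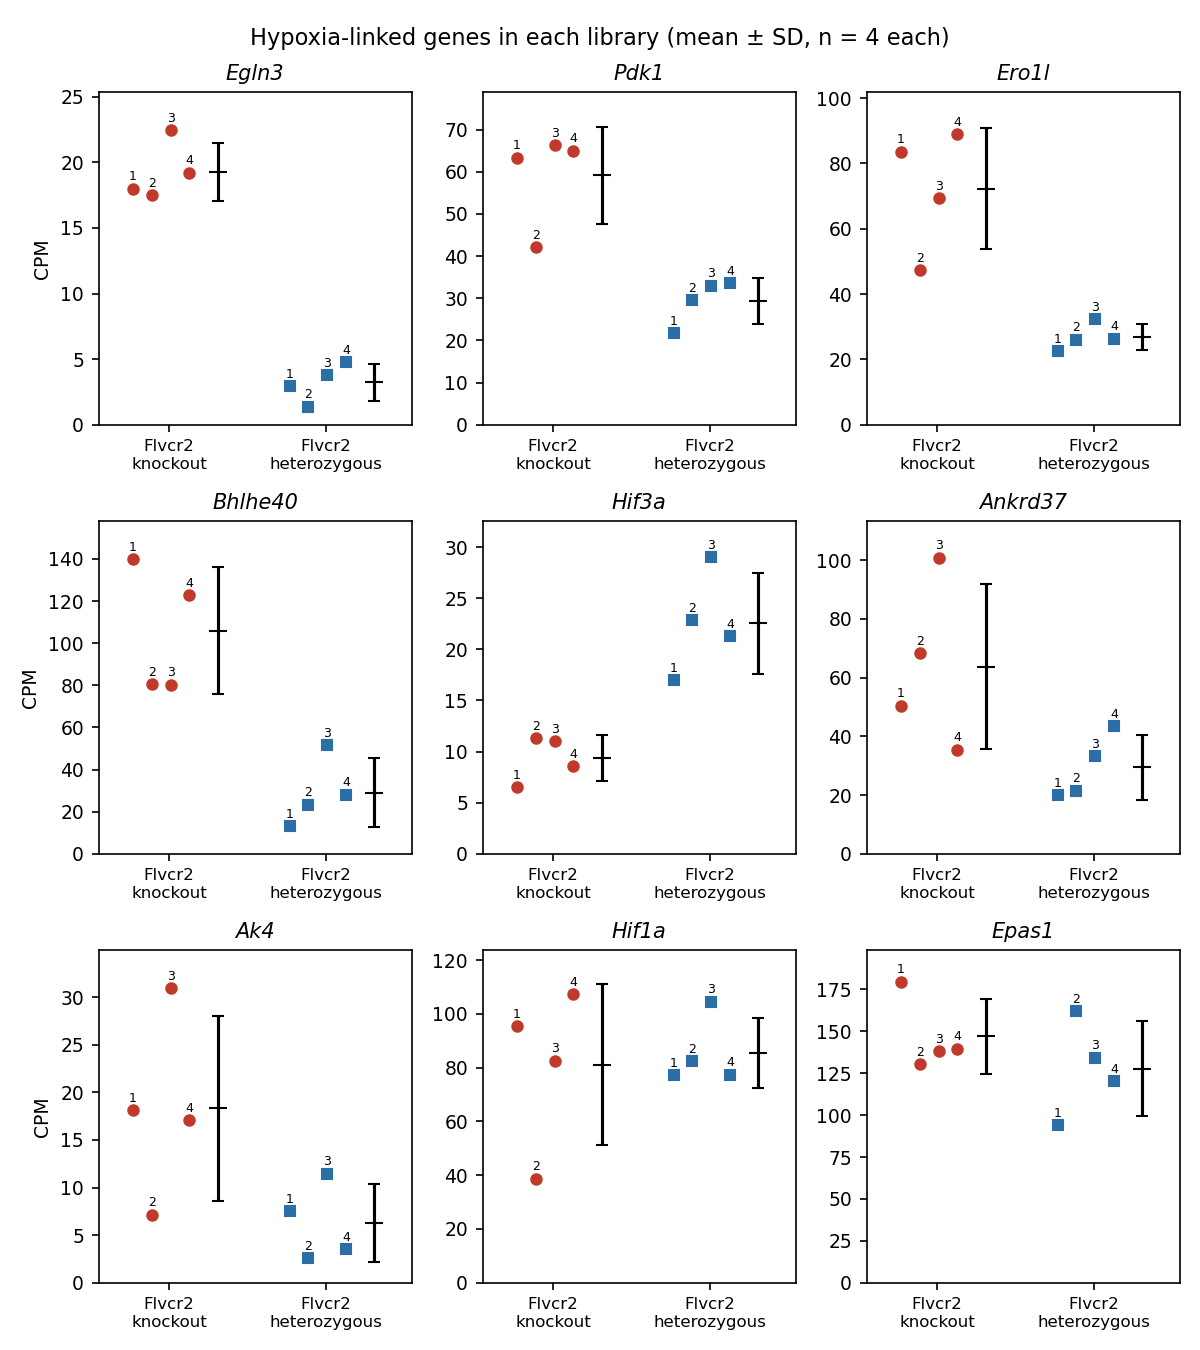
CPM in each library is shown for 9 of the genes, knockout (red circles) left of heterozygous (blue squares), with library numbers and the mean ± SD. The groups do not overlap for Egln3, Pdk1, Ero1l, Bhlhe40 and Hif3a, and overlap for Ankrd37, Ak4, Hif1a and Epas1.

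The knockout libraries did not share 1 order across the genes. Knockout 3 was the highest of the 8 libraries for 10 of the 31 genes, among them Egln3, Pdk1, Ak4, Car9 and Ankrd37, and the lowest for 0. Knockout 4 was highest for 4 genes, including Ero1l and Hif1a, and lowest for 4, including Bnip3l. Knockout 2 was the lowest for 6 genes, and heterozygous 1 for 9. Knockout 3 also had the highest fibroblast mean of the 8 libraries (5.09 log2 CPM) and the highest pericyte mean of the knockout libraries (3.59 log2 CPM), and heterozygous 1 the highest neuron mean; their part in the order was not tested.

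The levels of other cell types' markers stand beside all of these values. No list mean passed after adjustment, but the neuron, pericyte and erythroid means did not overlap between genotypes. Each had the smallest p that 70 arrangements allow (exact permutation test, p = 0.0286, adjusted p = 0.0667). Even full separation of the groups therefore did not pass here. Summed over their markers, the neuron list lay between 92.9 and 288 CPM in knockout and between 294 and 1864 CPM in heterozygous libraries, the microglia list between 142 and 932 and between 554 and 1593 CPM, the pericyte list between 40.5 and 584 and between 370 and 512 CPM, the radial glia list between 1320 and 1565 and between 1314 and 1438 CPM, the erythroid list between 19.9 and 52.0 and between 238 and 611 CPM, and the fibroblast list between 109 and 621 and between 231 and 422 CPM, in knockout and heterozygous libraries. Of the markers, 7 of 12 neuron, 1 of 12 microglia, 2 of 10 pericyte, 3 of 10 radial glia and 2 of 5 tested erythroid genes fell, and 0 of 8 fibroblast genes were called. Of the 12 endothelial markers, Emcn rose 2.28-fold, Sox18 fell 1.74-fold and 10 were not called. Among all these marker calls, Pax6, Hbb-y and Emcn held in each of the 8 leave-one-out fits, Dcx and Hba-x in 6. Neurod2 held in 5, Neurod6 and Elavl3 in 4, and Tubb3, Stmn2 and Slc1a3 in 3. Snap25, Lhx2, Ctss and Sox18 held in 2, and Cspg4 and Des in 1. No marker was at 0 in every library. The most abundant markers were Tubb3 at 61.9 ± 31.4 CPM in knockout and 339 ± 309 CPM in heterozygous libraries, Stmn2 at 34.9 ± 14.45 and 129 ± 99.6, C1qb at 108 ± 66.4 and 276 ± 121, C1qc at 85.8 ± 62.2 and 215 ± 84.6, and Hbb-y at 16.4 ± 6.15 and 346 ± 174 CPM for neurons, microglia and red cells. Vim (1059 ± 124 and 868 ± 118 CPM) and Nes (264 ± 36.7 and 206 ± 44.5 CPM) led the radial glia list and are known from endothelium too, and Vtn (141 ± 185 and 201 ± 23.7 CPM) and Col3a1 (82.6 ± 109 and 108 ± 38.1 CPM) led the pericyte and fibroblast lists. A score averaging the 6 lists lay between 2.20 and 3.74 in knockout and between 4.30 and 5.23 in heterozygous libraries, so genotype and score cannot be told apart in these libraries. With the score as a covariate, 0 of the 31 genes and 3 of all 13540 genes were called by edgeR (5 and 1195 at an unadjusted p under 0.05; DESeq2, run without the covariate, called 7 and 2229). Log2 fold changes were then 2.96 ± 0.72 for Egln3, 1.32 ± 0.47 for Ero1l, 1.04 ± 0.44 for Pdk1, 1.28 ± 0.79 for Bhlhe40 and -1.29 ± 0.60 for Hif3a, each with a larger error than without the score.

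Other genes of the pathway were read from lists of known function. Of 13 further genes of the HIF machinery, with a median log2 fold change of 0.06, 1 rose and 0 fell (7.69% called, against 9.55% of all tested genes). It was Siah2, a ubiquitin ligase gene that acts on prolyl hydroxylases, at 39.9 ± 11.6 CPM in knockout and 18.4 ± 2.12 CPM in heterozygous libraries; its call held in 4 of the 8 leave-one-out fits and was lost without knockout 1, knockout 4, heterozygous 1 or heterozygous 2. The elongin genes Tceb1 and Tceb2, Cul2 and Rbx1, whose products complete the von Hippel-Lindau ligase, had log2 fold changes between -0.11 and 0.21 and were not called; they are named after their values were seen.

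Of 62 hypoxia-inducible genes outside the set, 16 rose and 2 fell (29.0% called, against 9.55% of all tested genes). These lists were chosen with earlier results of these data known, so the share describes them and does not test the pathway. By group, 5 of 17 glycolytic targets rose and 0 fell (median log2 fold change 0.39), 7 of 22 angiogenic and matrix targets rose and 1 fell (median 0.78), and 4 of 23 further targets rose and 1 fell (median -0.08). Slc16a3, the lactate exporter gene of glycolytic cells, rose to 65.6 ± 12.5 CPM in knockout, against 15.5 ± 5.87 CPM in heterozygous libraries (log2 fold change 2.09 ± 0.26, SE; edgeR adjusted p = 0.00191). Ldha, for lactate dehydrogenase, rose 1.69-fold, Gpi1 1.69-fold and Gapdh 1.41-fold; Gpi1 lost its call without knockout 1 or knockout 4, Gapdh was called in 1 of the 8 leave-one-out fits, and near-identical copies in the genome make the counts of Gapdh uncertain.

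Among the angiogenic and matrix targets, Angpt2, for the angiopoietin that loosens vessels, rose 18.6-fold, Esm1, a gene of endothelial tip cells, 14.1-fold, and Adm, for the peptide hormone adrenomedullin, 4.04-fold. Angptl4, a secreted inhibitor of lipoprotein lipase, fell to 56.5 ± 20.4 CPM in knockout, against 219 ± 63.1 CPM in heterozygous libraries (log2 fold change -1.96 ± 0.29, SE; edgeR adjusted p = 0.00390). These 4 genes were called in each of the 8 leave-one-out fits. Hilpda, a lipid droplet protein gene induced by low oxygen, averaged 105 ± 13.2 CPM in knockout and 46.1 ± 9.33 CPM in heterozygous libraries, a 2.27-fold rise that held in all 8 fits. Errfi1 rose 2.09-fold, Maff 1.97-fold and Jmjd6 1.496-fold; the calls of Maff and Jmjd6 held in 3 of the 8 fits each. Tfrc, the transferrin receptor gene and the only further target that fell, was at 34.4 ± 22.0 CPM in knockout and 87.7 ± 12.8 CPM in heterozygous libraries; it was called in 1 of the 8 fits and is named after its values were seen.

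Of 25 relatives of the set's genes, 0 rose and 2 fell (8% called, against 9.55% of all tested genes). Their median log2 fold change was -0.43. Ak3, the mitochondrial relative of Ak4, was at 106 ± 13.6 CPM in knockout and 156 ± 18.4 CPM in heterozygous libraries (log2 fold change -0.56 ± 0.15; edgeR adjusted p = 0.0392), and its call held in 2 of the 8 leave-one-out fits.

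**Figure D5:**
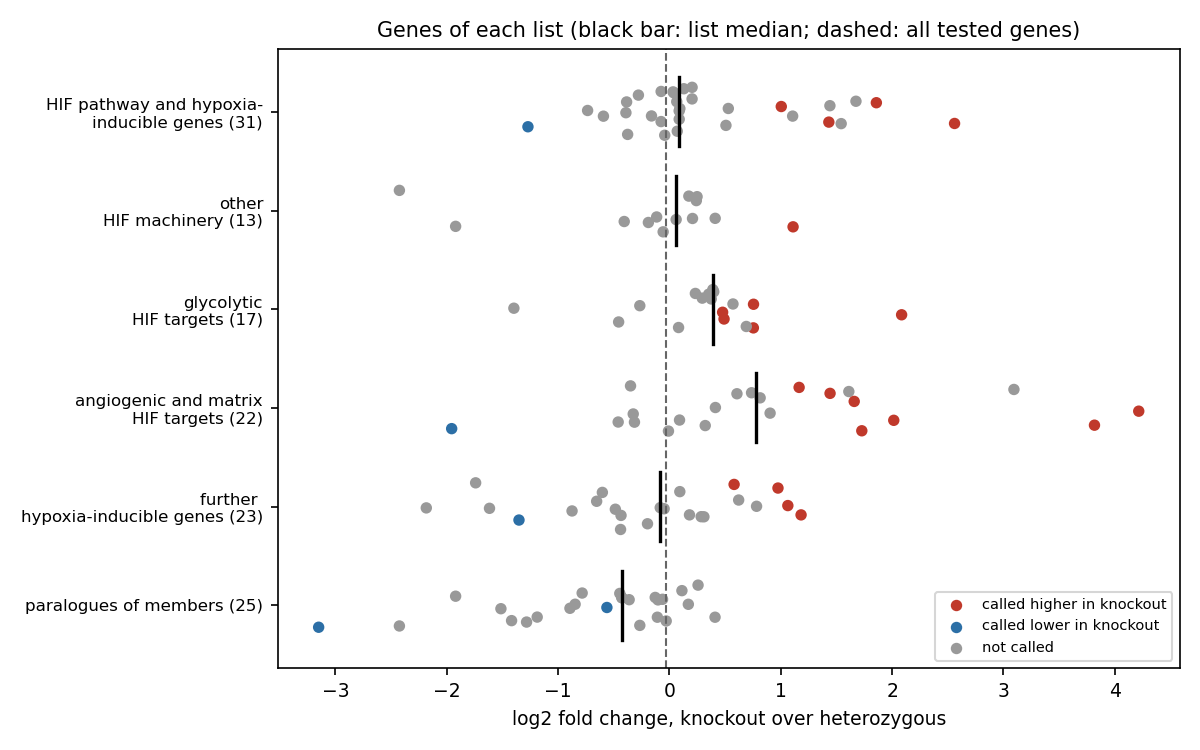
Each point is the log2 fold change of 1 gene, knockout over heterozygous, in the 31 genes and in 5 related lists (number tested in brackets); red and blue mark genes called higher and lower, the black bar is the list median and the dashed line the median of all tested genes. The angiogenic and matrix targets have the highest median (0.78) and the relatives the lowest (-0.43), beside 0.09 for the 31 genes.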

How the data were processed

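RNA was measured by sequencing in 4 Flvcr2 knockout and 4 Flvcr2 heterozygous libraries. Values were the raw counts per gene that the authors deposited. TopHat2 (0.7), Cufflinks (2.2.1) and mm10 are named in the submitters' processing notes, without roles. The counting program, strand setting and handling of multiply mapped reads were not given in the sources used here. Complementary DNA was made with SMART-Seq v4 and libraries with Nextera XT, per the labels' protocols.

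Counts were analysed in R 4.3.3 with edgeR 4.0.16 over the whole table. Genes were kept by filterByExpr (minimum count 10, minimum total 15), which left 13540 genes with 99.9% of the counts. Libraries were scaled with TMM factors and genotypes compared with the quasi-likelihood F-test, robust dispersion and no covariate; p-values were adjusted by Benjamini-Hochberg over all tested genes and called under 0.05. The SE is the log2 fold change divided by the square root of F, and intervals are at 95%. Marker lists (mean log2 CPM, prior count 2) were compared by an exact two-sided permutation test over 70 arrangements. Exon lengths, coordinates and overlaps come from GENCODE release M21 (GRCm38, the same build as mm10), and promoters from RefSeq. Symbols of 2 list genes were matched through synonyms.

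The test was tried on counts simulated for knockout against heterozygous libraries. With 13540 genes, 27% of 100 genes changed 2-fold and 60% of 100 changed 4-fold were recovered, with 4 false among 91 calls. No other genes were changed there, whereas 1293 genes were called in the data. The shares therefore do not give the recovery for the 31 genes. Library pairs within a genotype differed by more than sampling noise (chi-square over degrees of freedom 27.6 or more). Alternatives were other scalings, filters and tests (DESeq2 1.42.0, limma 3.58.1), a replicate block, an adjusted p under 0.1, a marker-score covariate and left-out libraries. The genes, lists and alternatives were chosen with earlier results of these data known. All 31 genes are accounted for; from each related list up to 4 called genes by smallest p are named. The values of 1 called gene of these lists are not reported here.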

Additional observations from a re-analysis of the deposited data

Results flagged for a closer look

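Each of the 62 groups of 4 libraries, 31 genes in each genotype, was screened for a library far from the other 3 of its genotype by Dixon's ratio of gap to range at its 95% critical value. Chance flags about 1 in 20 groups, and 3 were flagged. Pdk1 in knockout 2 stood at 42.1 CPM, below the 63.3 to 66.3 CPM of the other knockout libraries. Bnip3l in knockout 4 stood at 304 CPM, below the 389 to 398 CPM of the other knockout libraries. Vldlr in heterozygous 1 stood at 9.97 CPM, above the 2.83 to 3.41 CPM of the other heterozygous libraries; that library also had the highest neuron mean, and the part of neuronal transcripts was not tested.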

How the results depend on the processing

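Of the 31 genes, the 5 called (Egln3, Bhlhe40, Ero1l, Pdk1 and Hif3a) kept their calls under other scalings, filters and tests and with a replicate block. Over all settings 523 of 589 gene values kept direction and side of the threshold, 11 lost a call, 10 gained one and 45, all of genes not called, changed sign; the cause was not tested. Leaving out 1 library gave 4 to 6 genes higher and 0 to 1 lower, and over all genes 371 to 715 higher and 208 to 640 lower, with fewer samples in each fit; the lowest counts came without knockout 1. Without heterozygous 2 and knockout 1, 2 of the 31 were higher and 0 lower (180 and 120 of all genes); without heterozygous 1 and knockout 2, 307 of all genes were lower and Vldlr was called higher. With the other-cell score as covariate 0 of the 31 were higher and 0 lower (2 and 1 of all genes). All genes called lower numbered 1119 in DESeq2; voom gave 1198 higher and 1092 lower, and an adjusted p under 0.1 gave 1125 and 956. With the replicate block 433 of all genes were higher and 435 lower, and 5 and 1 of the 31. The labels pair no libraries by number. Deviations of same-numbered libraries correlated at 0.06, 0.21, -0.05 and 0.02, and not every library correlated best with its own number. These correlations cannot settle whether same-numbered libraries share an origin, so pairing remains unknown. With library size alone 42.6% of called genes were higher, against 57.9% under TMM scaling; the median over all genes was then -0.15 on the log2 scale, against -0.03 under TMM.

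Signs changed under library size alone for Vhl (-0.087), Hif1an (-0.040), Egln1 (-0.031), Cited2 (-0.098), Bnip3 (-0.025), Higd1a (-0.050) and Narf (-0.059); under voom for Hif1a (0.020), Vhl (-0.0099) and Higd1a (-0.063); with the covariate for Epas1 (-0.067), Pfkfb4 (1.87), Slc2a3 (0.82), Bnip3l (0.044), Kdm3a (0.69), Mxi1 (0.60), Ddit4 (0.11) and Ndrg1 (-0.66); without heterozygous 1 and knockout 2 for Hif1a (0.11), Higd1a (-0.10) and Kdm3a (0.074); and without heterozygous 2 and knockout 1 for Cited2 (-0.22) and Bnip3 (-0.034). Leaving out 1 library, log2 fold changes ran from -0.24 to 0.16 for Hif1a, -0.31 to 0.035 for Arnt, -0.050 to 0.10 for Vhl, -0.21 to 0.35 for Hif1an, -0.11 to 0.34 for Cited2, -0.13 to 0.24 for Bnip3, -0.14 to 0.019 for Bnip3l, -0.032 to 0.19 for Higd1a, -0.19 to 0.054 for Kdm3a, -0.042 to 0.19 for Narf and -0.23 to 0.36 for Ndrg1. Car9 (2 to 167 counts) and Vldlr (13 to 925 counts) had the errors 0.73 and 0.80 on the log2 scale, and their intervals reach past a 2-fold change.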

Other observations

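Genes that respond within minutes to stress and tissue dissociation were read because Ier3 and Bhlhe40 are also induced that way. Of 12 such genes 1 rose and 1 fell in knockout libraries (16.7% called, against 9.55% of all tested genes). Their median log2 fold change was 0.07. Atf3, a stress transcription factor gene, was at 90.7 ± 19.3 CPM in knockout and 44.9 ± 4.13 CPM in heterozygous libraries (log2 fold change 1.02 ± 0.18, SE; edgeR adjusted p = 0.00791), called in each of the 8 leave-one-out fits. Fos fell to 102 ± 33.9 CPM in knockout, against 293 ± 157 CPM in heterozygous libraries, and was called in 1 of the 8 fits.

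Egln3 and Hif1a lie on chromosome 12, as Flvcr2 does, 31.5 and 11.8 Mb from it in GRCm38. The origin of the flanks of the mutant allele was not given in the sources used here. Their part in the Egln3 difference was not tested.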
